A study of Mus musculus with 20 samples.

Results

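The 10 genes described here encode parts of the neuronal cytoskeleton and of the growing axon: Tubb3, Stmn2, Dcx, Map2, Mapt, Nefl, Nefm, Nefh, Ina and Gap43. They were chosen by gene symbol, 10 of the 37561 genes shared by all tables. Earlier results of these data were known at the choice, so the shares of all genes given beside the 10 genes are descriptions only. Map2 is listed under its older symbol Mtap2 and was matched by its Entrez number, while the other 9 carried the same symbol. All 10 passed the filter on low values, as did 13608 genes in all. It asked for a level of 4 or more on the log2 scale of normalized counts. The filter used the typical level over all tables of both lines.

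RNA-seq was run on mouse D3 embryonic stem cells (ESD3, strain 129s2/SvPas, kept on primary mouse embryo fibroblast feeders) that were turned into spherical neural masses (SNM) and differentiated toward dopaminergic neurons. The HPRT knockdown line carried a retroviral short hairpin RNA against HPRT, the purine salvage enzyme, and the control line one against luciferase, which these cells lack. One library of each line was sequenced on each day from 0 to 4 and at intervals of 2 days from 6 to 14, so that 20 libraries gave 10 per line and no replicate within a day. How often each line was made is not stated in the sources used here, and no replicate of a line is assumed. Both lines carried a hairpin vector, and a line without a vector was not analysed here.

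An axon is built around microtubules, hollow polymers of alpha and beta tubulin that carry its transport, and around neurofilaments, which set its calibre. Tubb3 is the beta tubulin of neurons. Dcx, Map2 and Mapt bind and stabilize microtubules, whereas Stmn2 binds free tubulin and keeps microtubules dynamic in growth cones. Nefl, Nefm, Nefh and Ina (alpha-internexin) assemble into neurofilaments, and Gap43 is a membrane-bound protein of the growth cone. Young neurons switch most of these genes on as they leave the cell cycle, which is why several of them serve as markers of neuronal differentiation, while the largest neurofilament subunit usually follows late.

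A ratio below is the log2 ratio of the knockdown library to the control library of the same day. Values are given in order of time, as the first 5 days (0 to 4) and the last 4 (8, 10, 12 and 14). Means are over these 9 days and leave out day 6, because the study had set it aside as discrepant. Day 6 is given separately for the 10 genes and for some of the further lists. The p-values come from limma, adjusted over all 13608 genes tested (threshold 0.05). They measure how steady a difference was through the course of 1 pair of lines, not the spread between independently made lines. Hprt, the targeted gene, had a mean ratio of -4.002 ± 0.89 (SD, n = 9 days) and was lower in the knockdown library on 9 of 9 days (exact sign-flip permutation test, two-sided, p = 0.00391, the smallest that 9 days allow). The depth of knockdown was not constant. For Hprt the first 5 days gave -2.53, -2.70, -3.90, -4.56 and -4.94, the last 4 gave -4.38, -3.79, -4.21 and -5.00, and day 6 gave -3.42. How deeply each single library was sequenced is unknown; within a day the size factor of the control library was 0.681 to 1.75 times that of the knockdown library. The median ratio of all genes stayed between -0.0237 and 0.0106 on each day.

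Of the 10 genes, 7 were lower in the HPRT knockdown line and none was higher. Tubb3, Dcx, Nefl, Nefm, Nefh, Ina and Stmn2 passed the threshold, whereas Map2, Mapt and Gap43 did not. Among all genes tested 26.3% were called lower and 26.2% higher. The median of the 10 mean ratios was -1.63, against 0.01 over all genes. At the level of the lines, Nefl, Ina and Stmn2 had every control library above every knockdown library over the 9 days. This held for 1.54% of all genes in that direction. The lowest control and highest knockdown libraries were close for Ina (-0.17 and -0.24) and Nefl (-0.93 and -1.04). Such levels are added up over consecutive days, which can shift them. For Ina on day 1 they were -0.17 and -2.74, while the same-day ratio was -2.63, a shift about as large as its margin. The fall in transcript cannot be told apart from fewer neurons among the cells of a culture, since whole cultures were sequenced.

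**Figure D1:**
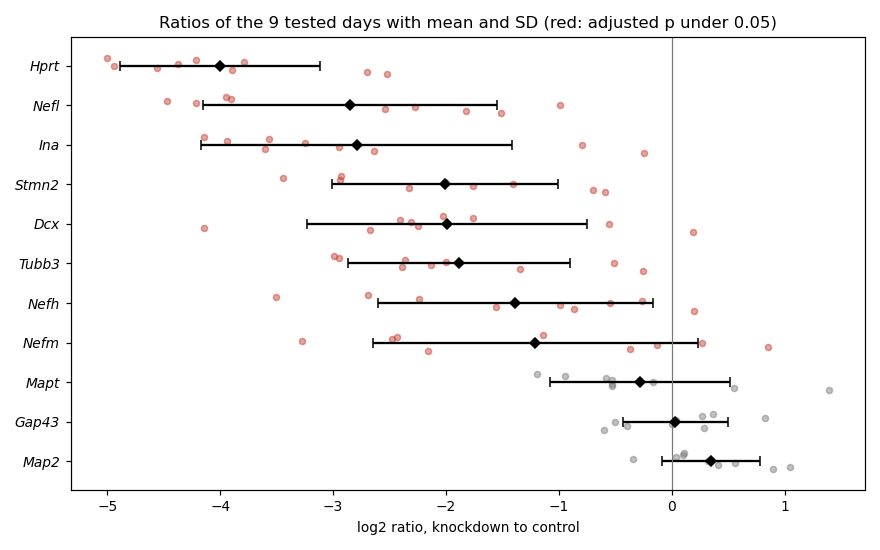
Log2 ratio of knockdown to control (horizontal axis) for each of the 10 genes and Hprt: small dots are the 9 tested days, diamonds and bars the mean and SD. Nefl and Ina lay lowest of the 10, at -2.85 and -2.79, and Mapt, Gap43 and Map2 had means of -0.28, 0.03 and 0.35.

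Promoter sequence from RefSeq (GRCm38.p6) was at hand for 4 of the 10 genes, and the 250 bases before the transcription start are printed for 3 that were lower in the knockdown (Tubb3, Dcx, Ina) and for Map2, which was not. Positions are chr8:123411303-123411552, plus strand for Tubb3, chrX:143933220-143933469, minus strand for Dcx, chr19:47014431-47014680, plus strand for Ina and chr1:66175079-66175328, plus strand for Map2. Dcx has a further start site a little downstream, not printed. Capitals mark matches on either strand to any of 6 motifs. TTCAGCACC is the left part of the site of REST, a repressor of neuronal genes, and its right part was searched as GGACAGC. As E-boxes, the sites of neurogenic factors, the letters CAGCTG were searched, and as a further E-box the letters CAGATG. The CCAAT box was searched by the letters of its name, and the TATA box as TATAAA.
Tubb3: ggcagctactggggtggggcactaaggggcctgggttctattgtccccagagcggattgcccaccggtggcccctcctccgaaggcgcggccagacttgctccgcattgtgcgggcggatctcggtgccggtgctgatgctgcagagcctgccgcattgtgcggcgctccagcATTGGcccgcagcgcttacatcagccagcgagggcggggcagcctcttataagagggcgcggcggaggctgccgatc
Dcx: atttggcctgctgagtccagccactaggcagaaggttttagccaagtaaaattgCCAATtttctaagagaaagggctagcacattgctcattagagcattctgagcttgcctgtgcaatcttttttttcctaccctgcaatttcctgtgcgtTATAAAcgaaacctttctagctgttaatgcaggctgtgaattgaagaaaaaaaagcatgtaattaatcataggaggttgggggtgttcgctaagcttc
Ina: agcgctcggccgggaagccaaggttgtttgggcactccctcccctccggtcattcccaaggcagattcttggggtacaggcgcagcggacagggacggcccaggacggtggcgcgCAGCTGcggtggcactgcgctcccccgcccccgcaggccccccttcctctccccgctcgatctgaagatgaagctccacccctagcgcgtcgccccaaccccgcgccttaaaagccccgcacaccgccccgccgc
Map2: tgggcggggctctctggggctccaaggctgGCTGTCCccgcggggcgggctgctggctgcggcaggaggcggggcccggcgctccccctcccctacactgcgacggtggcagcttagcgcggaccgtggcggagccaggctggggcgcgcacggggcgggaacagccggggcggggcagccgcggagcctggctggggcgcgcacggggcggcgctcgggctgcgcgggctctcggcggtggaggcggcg

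Tubb3 held CCAAT on the reverse strand, from -77 to -73 relative to the start. Dcx held CCAAT and TATAAA, and Ina held the E-box CAGCTG. In Map2 the right part of the REST site, GGACAGC, was present on the reverse strand, from -220 to -214. Over the same window of 32851 promoters, CCAAT was present in 33.8%, TATAAA in 12.4%, CAGCTG in 13%, CAGATG in 14.4%, GGACAGC in 5.28% and TTCAGCACC in 0.301%. No motif was shared by all 3 of the lower genes, and such matches are a description of the letters only.

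Tubb3 (Gene ID 22152; mm9 chromosome 8, 125935324 to 125945915, plus strand) encodes neuronal class III beta tubulin. Over the first 5 days the ratio was -0.25, -1.34, -2.39, -2.13 and -0.51. Over the last 4 it was -1.997, -2.36, -2.95 and -2.99. The ratio was thus below 0 on every day, near 0 on days 0 and 4 only, and lowest at the end. Its mean was -1.88 ± 0.98 (SD, n = 9 days; limma adjusted p = 0.000704), a 3.69-fold lower level. Day 6 gave -1.55. Relative to the control line at day 0, control libraries ran from -0.59 on day 1 through a median of 0 to 0.45 on day 10. Knockdown libraries ran from -3.09 on day 14 through a median of -1.91 to -0.22 on day 4. The lines overlapped because knockdown libraries of days 0 and 4 reached the range of the control.

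Stmn2 (20257; chromosome 3, 8509527 to 8561604, plus strand) encodes stathmin-2, a tubulin-binding protein of growing axons. Its ratio went through -0.59, -0.69, -2.33, -1.76 and -1.40 in the first 5 days. The last 4 gave -2.01, -2.94, -3.44 and -2.93. All 9 ratios were below 0, with a mean of -2.01 ± 1.003 (SD, n = 9 days; limma adjusted p = 0.000554), 4.03-fold lower, and day 6 stood at -1.64. Control libraries ran from -0.31 through a median of 0.40 to 0.84, and knockdown libraries from -2.58 through a median of -1.52 to -0.59. The 2 ranges did not overlap.

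Dcx (13193; chromosome X, 140290385 to 140367854, minus strand) encodes doublecortin, the microtubule-binding protein of migrating young neurons. From day 0 to day 4 the ratio read 0.18, -2.67, -4.15, -2.25 and -0.55. Later it read -2.31, -2.40, -1.76 and -2.02. Apart from day 0 the knockdown library was always lower, by 17.7-fold on day 2, and after day 0 the difference was smallest at day 4. The lowest read number of Dcx, about 29.9 to 239, was in that knockdown library of day 2. The mean ratio of Dcx over the course was -1.99 ± 1.24 (SD, n = 9 days; limma adjusted p = 0.00170), and day 6 gave -1.45. In the control line the level lay between -0.11 and 2.07 with a median of 0.33, and in the knockdown line between -3.94 and 0.23 with a median of -0.50. The ranges overlapped.

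Map2 (17756; chromosome 1, 66221847 to 66489157, plus strand) encodes the microtubule-associated protein of dendrites. Its mean ratio was above 0, but the difference missed the threshold. The first 5 days gave ratios of 0.89, 1.04, 0.41, 0.56 and 0.32. In the last 4 they were -0.34, 0.04, 0.10 and 0.11. The knockdown library was thus higher on 8 of 9 days, mostly early, with a mean of 0.35 ± 0.44 (SD, n = 9 days; limma adjusted p = 0.0570; 95% interval 0.04 to 0.66). Without day 8 the mean was 0.43 and passed the threshold (limma adjusted p = 0.0223), as it did among the 8248 genes at a log2 count of at least 8 (limma adjusted p = 0.0440). On day 6 the ratio was -0.06.

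Mapt (17762; chromosome 11, 104092704 to 104193404, plus strand) encodes tau, the microtubule-associated protein of axons. Ratios of 1.39, 0.56, -0.53, -0.53 and -0.17 were measured in the first 5 days. They were followed by -0.53, -0.58, -0.95 and -1.19. Knockdown libraries were higher on the first 2 days and lower on the other 7, so that the mean of -0.28 ± 0.80 (SD, n = 9 days) missed the threshold (limma adjusted p = 0.350; 95% interval -0.82 to 0.26). Without day 0 the mean passed, at -0.49 (limma adjusted p = 0.0376). On day 6 the ratio was -0.21.

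Nefl (18039; chromosome 14, 68701920 to 68707152, plus strand) encodes the light neurofilament subunit, on which the others assemble. In the first 5 days the ratio was -1.51, -1.82, -2.54, -2.28 and -0.99. It then reached -4.22, -4.47, -3.90 and -3.95 in the last 4. Of the 10 genes Nefl had the lowest mean, -2.85 ± 1.301 (SD, n = 9 days; limma adjusted p = 0.000345), a 7.22-fold lower level, and on day 10 the knockdown library was 22.1-fold lower. On day 6 it was -3.10. Control libraries lay between -0.93 and 0.70 with a median of -0.12. Knockdown libraries lay between -4.88 and -1.04 with a median of -2.79, below every control library. The lowest of them, that of day 14, held about 48.5 to 93.7 reads, as read from the rounding of the deposited values. Of the 3380 exonic bases of Nefl, 1108 are shared with Nefm on the opposite strand. The library kit keeps no strand, so reads from those bases cannot be assigned to either gene.

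Nefm (18040; chromosome 14, 68700647 to 68742903, minus strand) encodes the medium subunit. The gene model of Nefl lies within its span, on the opposite strand. The ratio took values of -2.16, -0.37, 0.86, -0.13 and 0.27 in the first 5 days. Those of the last 4 were -3.27, -2.48, -2.44 and -1.14. Day 0 and the 4 late days were low, while days 1 to 4 scattered around 0. The mean of -1.21 ± 1.44 (SD, n = 9 days) passed the threshold (limma adjusted p = 0.0384), but not after leaving out day 0 (-1.09, adjusted p = 0.0797), day 8 (-0.95, 0.0835), day 10 (-1.05, 0.0846), day 12 (-1.06, 0.0852) or day 14 (-1.22, 0.0623). An exact sign-flip permutation test gave an adjusted p = 0.0776. On day 6 the ratio was -1.80. In the control line the level itself moved from 0.27 on day 8 to -2.44 on day 14, and the highest knockdown library, day 4, stood at -0.21. The gene models of Nefl and Nefm share 1108 exonic bases on opposite strands, and the library kit keeps no strand, so reads from there cannot be told apart between them.

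Nefh (380684; chromosome 11, 4838757 to 4848067, minus strand) encodes the heavy subunit. During the first 5 days its ratios were 0.20, -0.87, -1.56, -0.99 and -0.55. During the last 4 they were -0.26, -2.24, -3.51 and -2.69. The 3 last days were the lowest, and the mean was -1.39 ± 1.22 (SD, n = 9 days; limma adjusted p = 0.0102). Nefh had the lowest read numbers of the 10 genes, with a typical log2 count under 8 and about 2.64 to 6.06 reads in the knockdown library of day 14, so its late ratios carry a large counting error. On day 6 the knockdown library was the higher one, at 0.59.

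Ina (226180; chromosome 19, 47089188 to 47099817, plus strand) encodes alpha-internexin, the neurofilament protein of early neurons. For days 0 to 4 the ratios were -0.25, -2.63, -3.60, -2.95 and -0.80. For the last 4 days they were -3.25, -3.94, -3.57 and -4.14. As for Tubb3 and Dcx, days 0 and 4 were closest to 0 and day 2 was the lowest of the first 5 days. The mean was -2.79 ± 1.37 (SD, n = 9 days; limma adjusted p = 0.000504), 6.93-fold lower, and day 6 gave -1.75. The lowest read number of Ina, about 53.8 to 124, was in the knockdown library of day 2. Control libraries lay between -0.17 and 2.14 with a median of 0.52, and knockdown libraries between -3.28 and -0.24 with a median of -1.82, with no overlap. Its gene model shares 456 exonic bases with Nt5c2 on the opposite strand, whose mean ratio was -0.39 (limma adjusted p = 0.0769).

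Gap43 (14432; chromosome 16, 42248555 to 42340764, minus strand), the growth-cone protein, showed no difference that passed the test. Early ratios, those of the first 5 days, were -0.60, 0.28, -0.39, -0.0018 and -0.50. The late ones were 0.04, 0.82, 0.27 and 0.36. The knockdown library was higher on 5 of 9 days, and the 4 late days were all above 0. The mean was 0.03 ± 0.46 (SD, n = 9 days; limma adjusted p = 0.873), with a 95% interval of -0.30 to 0.36. On day 6 it was -0.01.

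**Figure D2:**
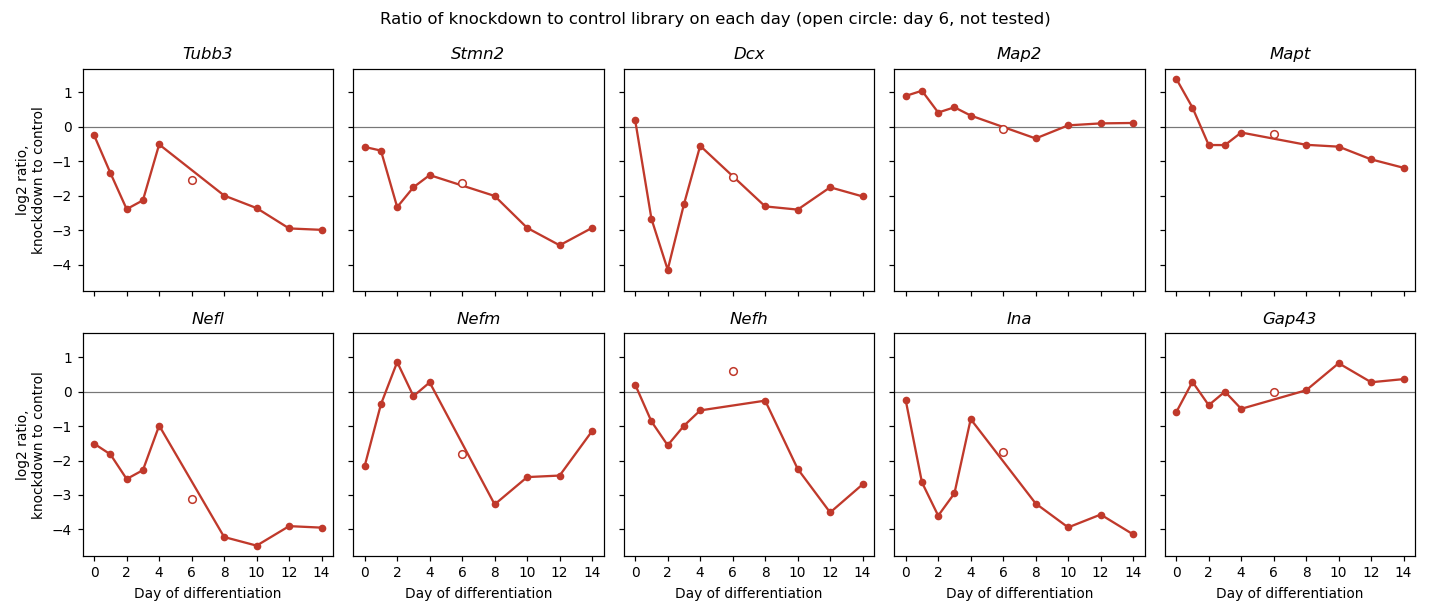
Log2 ratio of the knockdown to the control library (vertical axis) by day of differentiation, 1 panel per gene; the open circle is day 6. Tubb3, Dcx and Ina dipped on days 1 to 3, were closer to 0 on day 4 and were low again from day 8, whereas Map2 lay between -0.34 and 1.04 and Gap43 between -0.60 and 0.82.

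Of the 10 genes, 6 were lower in the knockdown library of day 0, 7 in that of day 1 and 8 or 9 in each later one, day 6 included. Their median ratio moved from -0.25 at day 0 to -1.94 at day 2, back to -0.53 at day 4, and to -2.69 at day 12. On each day 48.6% to 51.3% of all genes tested were lower.

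The next comparison asked how each line changed with time, as a slope in log2 units per day on values joined from tables of consecutive days, which the authors had normalized separately. The slope fits, those of the ratio included, treat the 9 days as independent. They are successive collections of the same lines, and the p-values make no allowance for likeness between neighbouring days. In the control line 5 of the 10 genes rose and none fell, where 19.7% of all genes were called rising and 23.9% falling. Mapt rose fastest, at 0.20 ± 0.02 per day (SE; limma adjusted p = 0.000537), and its control library of day 14 stood at 2.12 relative to day 0. Dcx rose at 0.17 ± 0.03 (limma adjusted p = 0.00166), Ina at 0.15 ± 0.03 (0.00491), Map2 at 0.08 ± 0.02 (0.00776) and Stmn2 at 0.06 ± 0.01 (0.00490). For Dcx and Ina most of the rise fell between day 4 and day 8, from 0.33 to 1.85 and from 0.52 to 1.93. Tubb3 had a slope of 0.04 ± 0.02 (limma adjusted p = 0.174), and 0.06 without day 14, which passed (limma adjusted p = 0.0326). Gap43 had a slope of 0.03 ± 0.02 (limma adjusted p = 0.158), and 0.05 without day 0 (limma adjusted p = 0.0111). The slopes of Nefl, Nefm and Nefh lay between -0.0151 and -0.0023 and did not pass.

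In the HPRT knockdown line 3 of the 10 genes had a time trend: Nefl and Nefh fell and Gap43 rose. Over all genes 7.6% were called rising and 5.53% falling. Nefl fell by 0.21 per day (SE 0.04; limma adjusted p = 0.0208), Nefh fell by 0.19 (SE 0.05; limma adjusted p = 0.0338), and Gap43 rose by 0.08 ± 0.02 (limma adjusted p = 0.0341). None of the 3 calls held without day 12 or without day 14, when the adjusted p of Nefl was 0.0644 and 0.103, that of Nefh 0.0982 and 0.181, and that of Gap43 0.0879 and 0.0987. The call of Nefh was also lost without day 1, 3 or 10 (adjusted p 0.0528 to 0.0666), and that of Gap43 without day 2 or 3 (0.0761 and 0.0572). Without day 14 the number of genes called in this line dropped from 1786 to 171. None of Mapt, Dcx, Ina, Map2 and Stmn2, which rose in the control, had a slope in the knockdown line that passed; their slopes were 0.07, 0.14, -0.03, 0.01 and -0.11. With 1 day left out Mapt and Stmn2 became calls, Mapt without day 0 (0.13, adjusted p = 0.0112) and Stmn2 without day 2 (-0.13, adjusted p = 0.0268), and so did Nefm without day 4 (-0.13, adjusted p = 0.0478).

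**Figure D3:**
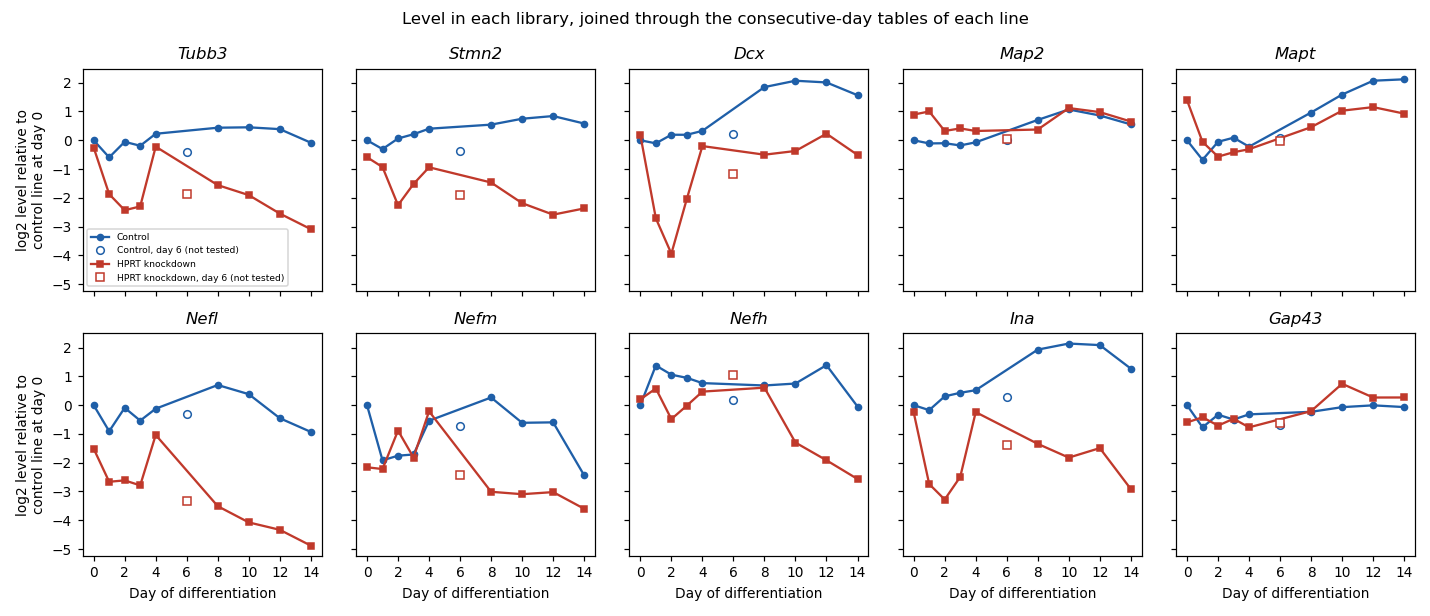
Log2 level relative to the control line at day 0 (vertical axis) by day of differentiation, 1 panel per gene, blue circles for the control line and red squares for the HPRT knockdown line, open symbols for day 6. Nefl, Ina and Stmn2 had no control library within the range of the knockdown libraries, and the knockdown libraries of Dcx fell to -3.94 on day 2.

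The difference in trend between the lines was tested as the slope of the ratio on day. It was negative for 9 of the 10 genes and passed the threshold for 4, all of them with a ratio that became lower with time, where 6.61% of all genes were called in that direction and 7.43% in the other. Nefl had a slope of -0.21 ± 0.05 per day (SE; limma adjusted p = 0.0255), Nefh of -0.18 ± 0.05 (0.0442), Stmn2 of -0.17 ± 0.03 (0.0175) and Mapt of -0.12 ± 0.03 (0.0417). Stmn2 lost its call without day 12 alone (-0.15, adjusted p = 0.0609). Nefl lost it without day 0, 1, 10 or 12 (-0.22 to -0.19, adjusted p 0.0516 to 0.0652). Mapt lost it without any of days 0, 1, 4, 8, 10, 12 and 14 (-0.13 to -0.08, 0.0605 to 0.113) and Nefh without any of days 0, 1, 3, 4, 10, 12 and 14 (-0.20 to -0.14, 0.0643 to 0.126). Tubb3 had a slope of -0.14 ± 0.04 (limma adjusted p = 0.0620) and passed without day 2 (-0.17, adjusted p = 0.0340). For Ina the slope was -0.18 ± 0.07 (limma adjusted p = 0.107), and for Dcx, which was already low on days 1 to 3, it was -0.02 ± 0.08 (limma adjusted p = 0.890). Gap43 was the one gene with a positive slope, 0.06 ± 0.02 (limma adjusted p = 0.122).

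**Figure D4:**
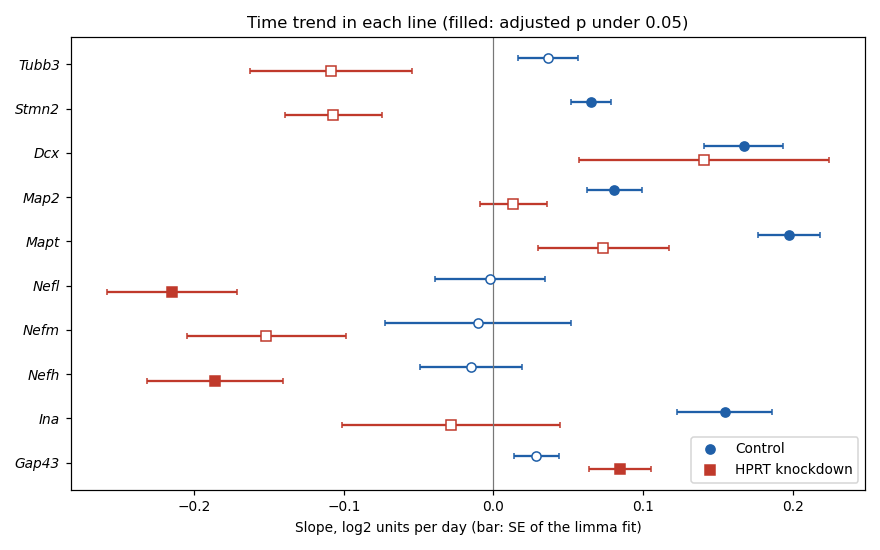
Slope of the level on day (horizontal axis, log2 units per day) in the control line (blue circles) and the HPRT knockdown line (red squares) for the 10 genes; bars are the SE of the limma fit and filled symbols passed the threshold. In the control line 5 slopes passed, all above 0, and in the knockdown line 3 passed, 2 of them below 0.

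Over the 18 libraries of the tested days, the profiles of the 10 genes fell into members that moved together and members that did not. Ina, Tubb3 and Stmn2 had a Pearson r of 0.971, 0.949 and 0.922 with the mean profile of the other 9 genes, Nefl of 0.843 and Dcx of 0.741. Nefh, Nefm and Mapt had 0.598, 0.566 and 0.308. Map2 and Gap43 had -0.133 and -0.131. Both lines enter r, so it also holds the difference in level between them. Ina and Nefl had r = 0.833 with each other, although Ina had a called rise in the control line and Nefl did not. Libraries of 1 line and the joining of tables are shared by these points, so the values are descriptions with no test. The 5 other genes most like the mean profile of the 10 were Xkr7 (r = 0.985), Scrt2 (0.982), LOC100503448 (0.980), Chrnb2 (0.979) and Pgm2l1 (0.971). Scrt2 is a transcription factor of young neurons and Chrnb2 a nicotinic receptor subunit. Their mean ratios were -4.11 and -1.63, given as descriptions because the profile they were chosen for already differs between the lines.

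Other genes of the neuronal cytoskeleton were counted by list, to be read against the 26.2% higher and 26.3% lower of all genes. Of 10 measured alpha and beta tubulins other than Tubb3, 4 were lower and none was higher, with a median ratio of -0.33. Tuba1b was at -0.82 ± 0.37 (SD, n = 9 days; limma adjusted p = 0.000495) and Tubb5 at -0.78 ± 0.26 (0.000164), both general tubulins of dividing cells. Tuba4a was at -0.77 ± 0.66 (0.00978) and Tubb4b at -0.50 ± 0.28 (0.00201). On day 6 Tuba1b, Tubb5 and Tubb4b were at 0.21, 0.18 and 0.06, and Tuba4a at -0.91. Of 20 other microtubule-associated and tubulin-binding proteins, 7 were higher and 3 lower (median 0.26). Camsap3, which binds microtubule minus ends, was at -1.57 (limma adjusted p = 0.000847) and Stmn1, the stathmin of proliferating cells, at -0.96 (0.000745). In the other direction Tppp3 was at 1.14 (limma adjusted p = 0.000515) and Camsap2 at 0.71 (0.00961).

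Among 6 other intermediate filament genes of neural cells, 2 were higher and none lower: Vim, expressed in progenitors and glia, at 0.91 ± 0.29 (SD, n = 9 days; limma adjusted p = 0.000115) and Gfap, the astrocyte filament, at 1.34 ± 1.01 (0.00491). On day 6 Vim was at -0.57 and Gfap at -0.49. Of 20 growth cone and axon growth genes 4 were higher and 5 lower (median -0.11). Cntn2, an axonal adhesion molecule, was at -2.93 (limma adjusted p = 0.00127), Crmp1 at -1.15 (0.00130) and Dpysl5 at -1.10 (0.00106), both collapsin response mediators, while the adhesion molecule Nrcam was at 0.93 (8.32e-05). Of 15 axonal motors, spectrins and ankyrins 6 were higher and 4 lower (median 0.03). Ank3, the ankyrin of the axon initial segment, was at -1.03 (limma adjusted p = 0.000418) and the kinesin Kif5c at -0.91 (0.00501), Kif21a was at -0.76 (0.00619) and Kif1a at 0.83 (0.000247).

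Markers of cell types were counted in the same way, again beside 26.2% of all genes higher and 26.3% lower, and their part in the differences was not tested. Of 7 measured pan-neuronal markers 2 were lower, a share near that of all genes, Elavl4 at -1.99 (limma adjusted p = 0.000751) and Syt1 at -0.95 (0.0234), and none was higher. In the control line all 7 rose with day, where 19.7% of all genes did. In the knockdown line no slope of the 7 passed, where 7.6% of all genes rose, and for 2 of the 7 the ratio became lower with day (6.61% of all genes). The mean joined level of the 7 ran between -0.55 and 1.52 in control libraries and between -1.05 and 0.90 in knockdown libraries. Rbfox3 was below the filter. All 5 astrocyte markers were higher, with mean joined levels of -1.80 to 0.79 in control and 0.11 to 1.73 in knockdown libraries. On day 6, which is not in these values, the ratio was 3.75 for S100b but -1.17 to -0.49 for the other astrocyte markers. Of 7 oligodendrocyte markers 3 were higher (Olig2 3.02, Olig1 2.51, Cnp 2.24), with mean levels of -3.01 to 0 in control and -1.98 to 2.71 in knockdown libraries. For 6 of the 7 the ratio rose with day, where it did for 7.43% of all genes.

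All 5 pluripotency markers were lower in the knockdown, where 26.3% of all genes were, with a median ratio of -2.78 and mean levels of -0.42 to 1.48 in control and -6.81 to -0.05 in knockdown libraries. On day 6, which is not in these values, the ratio was -0.73 for Zfp42 but 0.159 to 2.125 for the other pluripotency markers. Of 5 proliferation markers 4 were lower (median -0.92), with mean levels of -1.40 to 0.24 and -2.57 to -0.29. Their day 6 ratios ran from 0.21 (Cdk1) to 0.73 (Top2a). Among 7 neural progenitor markers Sox2 was higher, at 0.52, and Pax6 and Hes5 were lower, at -1.36 and -0.99, a share of lower genes near that of all genes, with mean levels of -0.68 to 0.54 and -0.97 to 0.31. Of 5 fibroblast markers, which the feeder cells express, Lum alone was lower, at -1.07, again near the share of all genes, with mean levels of -1.73 to 2.32 and -0.87 to 1.03. Every marker listed had reads in at least 1 table. The neural progenitor markers all passed the filter, as did the pluripotency, proliferation and fibroblast markers.

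**Figure D5:**
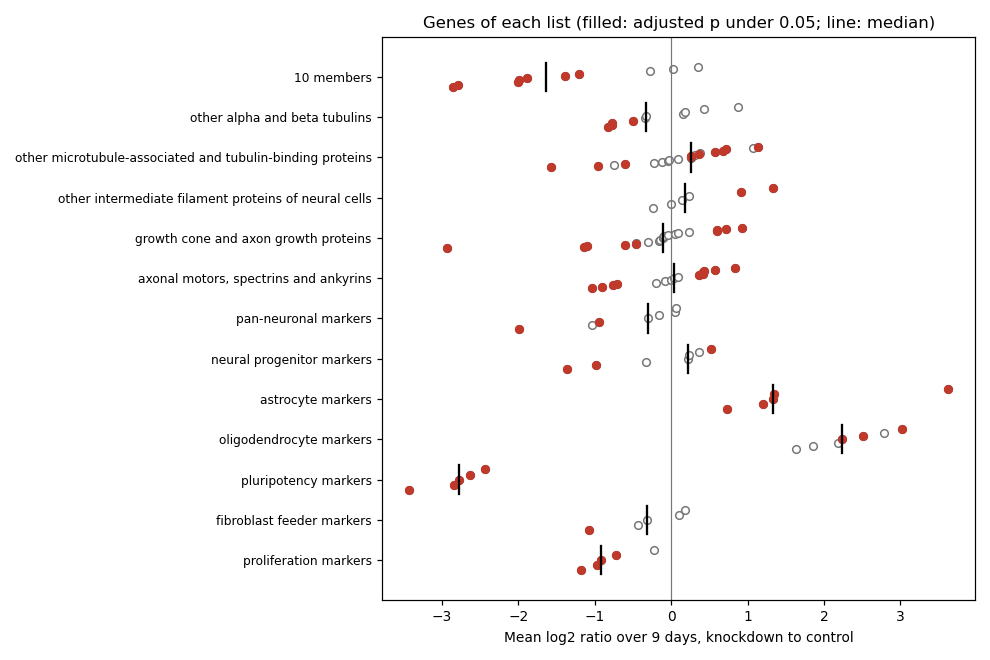
Mean log2 ratio of knockdown to control over 9 days (horizontal axis) for each gene of each list; filled circles passed the threshold and the black line is the median of the list. The 10 cytoskeleton and axon growth genes had a median of -1.63, astrocyte and oligodendrocyte markers lay above 0, and all 5 pluripotency markers lay below it.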

How the data were processed

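RNA-seq of 20 libraries was used, 1 per line and day. The authors pooled RNAs within a time point, made libraries that keep no strand, sequenced them on a HiSeq for 50 cycles, aligned reads with ELAND in CASAVA 1.8.2 to mm9 and normalized them with DESeq in Avadis NGS. Each of the 28 deposited tables holds the log2 values of 2 libraries less their mean, that is a ratio and no level: 10 pair the lines within a day, and 9 per line pair consecutive days. The libraries were spread evenly over the lanes of 1 flow cell; the lane and the depth of each single library were not given in the sources used here.

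The members and gene lists were chosen with earlier results of these data known. Ratios came from same-day tables, and levels were added up over consecutive-day tables. The typical level of a gene was read from the rounding step of the single-precision values, and genes were kept from a log2 normalized count of 4 upward. The same rounding gave a bracket for the reads in a member's lowest library. Tests used limma 3.58.1 (lmFit, eBayes) in R 4.3.3 over 9 days with Benjamini-Hochberg adjustment. Fits were tested first on simulated data, in which each day was drawn independently.

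Named are all 10 members, Hprt, up to 4 called genes per list by absolute mean ratio, and the 5 genes most like the members' mean profile. The day is the pair: both lines were collected on it, and deviations of same-day libraries from their line means correlated across genes at r = -0.0321 on day 0 and 0.131 to 0.412 on the other 8 days. The same-day library was the one most correlated on 4 of the 9 days. Around a loop of 4 tables, 90.4% to 92% of genes closed within 1e-05, except in the loop of days 3 and 4 (0.0588%), where the control table holds other values; for the members that residual was at most 0.0350 in size, but -0.190 for Nefh. Alternatives were no filter, a log2 count of at least 8, day 6 kept, centring, each day left out, joined ratios, sign flips, an unpaired fit and other time scales. Gene models are GENCODE M1 (mm9). Protein sequences were not used here. One further marker list is not reported here.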

Additional observations from a re-analysis of the deposited data

Results flagged for a closer look

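For 4 members the time trend differed between the lines by the test of the slope of the ratio on day (limma, adjusted over all genes). The slope was -0.12 per day for Mapt, -0.21 for Nefl, -0.18 for Nefh and -0.17 for Stmn2, each a ratio of knockdown to control that became lower with time. Over 30 series of 10 values (the ratio, the control line and the knockdown line of each member) no single day stood apart from the other days by Dixon's criterion.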

How the results depend on the processing

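For the difference between the lines, 6 to 8 members passed under every alternative, with Nefm and Map2 the ones that changed sides, besides Mapt without day 0; Nefh was not among the 8248 genes of the stricter filter. In the fit without pairing by day (no replicate block) 5829 genes and 7 members passed, against 7141 and 7 with it. Genes called over the course numbered 6254 to 7265 with 1 day left out, and the mean of Hprt ran from -4.19 to -3.88. Trends depended more on single days: with 1 day left out, 4621 to 6267 genes passed in the control line (5 to 6 members), 171 to 2959 in the knockdown line (0 to 4 members) and 605 to 1657 for the ratio (0 to 5 members). On log2(day + 1) 3929 genes passed in the control line and 127 in the knockdown line, where no member (0) did. For the slope of the ratio, 1066 genes passed with day 6 kept, 767 with late days against early days (1 member), and 2 members passed with no filter. Directions turned for values near 0 that did not pass when all days were used. With 1 day left out, Gap43 between the lines ran from -0.0684 to 0.109, the control slopes of Nefl from -0.0239 to 0.0430, Nefm from -0.0393 to 0.0758 and Nefh from -0.0494 to 0.0303, the knockdown slope of Ina from -0.0649 to 0.0282 and the ratio slope of Dcx from -0.0727 to 0.0615. On log2(day + 1) the control slope of Nefl was 0.0296 and that of Nefh 0.0124. With the step from day 3 to day 4 taken through the knockdown tables, an alternative chosen after seeing the data, that of Nefh was 0.00117. The causes were not tested.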
